A study of Mus musculus with 6 samples.

Results

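Some stretches of open chromatin were called in face tissue with the label maxillary process and in tissue with the label nose, but not under the label mandibular process. They were chosen from the peak lists of all 6 libraries. Overlapping peaks were merged into 382006 regions, and a member region had to hold a peak in each of the 4 libraries with the labels maxillary process and nose, no peak in the 2 libraries of the mandibular label, and its strongest summit more than 1 kb from any protein-coding start site. The rule gave 3014 member regions among 350432 distal regions, which is 0.86% of them. Presence and absence of peaks in all 6 libraries chose the members, so these calls and the number of members are a description and carry no test.

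ATAC-seq, which tags accessible DNA with the Tn5 transposase, was made in bulk from freshly dissected face tissue from wild-type mouse embryos at E11.5. Each of the 3 labels (maxillary process, mandibular process and nose) had 2 libraries, and per the labels the groups differed in tissue alone. The cell type is given as mixed, so a region open in fewer cells and a region less open in every cell cannot be told apart. Nothing in the labels tells if libraries of the same tissue are from different embryos, and the spread between them may be technical.

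The file names of the 4 jaw lists abbreviate the opposite jaw to the one on the sample label. Tissues are therefore named by their sample labels. Distal regions nearest to genes of known place in the face did not all go with these labels. Near Hand2, a transcription factor of the lower jaw, 4 of 38 distal regions had a peak in both maxillary libraries and in no mandibular library, and 0 had the opposite pattern. Near Alx1 and Alx4, homeobox genes of the frontonasal and upper face, 0 regions were called under the maxillary label alone of the jaw labels, while 7 of 61 and 5 of 49 were called under the mandibular label alone. Near Dlx5 and Dlx6, which specify the lower jaw, the counts were 0 against 2 of 12 and 2 against 3 of 32, higher for the mandibular label. Of all 213492 distal regions within 100 kb of a start site, 7656 (3.59%) had the maxillary pattern and 11442 (5.36%) the mandibular pattern. Which assignment of the jaw lists is right was not tested, and if the file names were right the members would be regions of mandibular process and nose.

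The maxillary processes form most of the upper jaw and cheeks, and the nasal processes around the nasal pits form the nose and the front of the upper lip, where both meet and fuse. The mandibular processes form the lower jaw. The mesenchyme of all of them comes largely from the neural crest, and distant enhancers, which are open chromatin away from promoters that transcription factors bind, set which genes are used in which process.

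Windows of 201 bp centred on the strongest summit are given for 7 member regions, read from the RefSeq genome sequence of GRCm38 on the plus strand. The Kel and Gria4 introns hold the members with the highest ranks. Foxd1, Pou3f3 and Jag1 are upper-jaw genes whose start sites are nearest to the next 3 windows, and the Pou3f3 window lies in an intron of Pantr1. The window in an intron of Wars2, nearest to the start site of Tbx15, joins a homeodomain and a nuclear receptor motif. The window near Ebf2 is the only one near a listed gene of the nasal epithelium. Capitals mark, on either strand, the E-box CAGCTG, the Twist-type E-box CAGATG, the Snai-type E-box CACCTG, the nuclear receptor half-site AGGTCA, the T-box half-site AGGTGT, the homeodomain letters TAATTA and the bicoid-class letters TAATCC, the motifs whose shares are described after the strengths.
Kel intron window, chr6:41692083-41692283: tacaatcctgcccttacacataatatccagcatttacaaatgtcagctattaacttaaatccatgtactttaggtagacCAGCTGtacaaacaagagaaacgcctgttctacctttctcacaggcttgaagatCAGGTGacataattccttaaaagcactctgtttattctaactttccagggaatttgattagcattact
Gria4 intron window, chr9:4459529-4459729: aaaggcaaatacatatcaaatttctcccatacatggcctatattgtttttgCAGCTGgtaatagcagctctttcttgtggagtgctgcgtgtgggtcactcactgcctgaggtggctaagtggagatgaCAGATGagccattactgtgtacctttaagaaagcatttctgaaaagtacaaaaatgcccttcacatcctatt
Foxd1 window, chr13:98393502-98393702: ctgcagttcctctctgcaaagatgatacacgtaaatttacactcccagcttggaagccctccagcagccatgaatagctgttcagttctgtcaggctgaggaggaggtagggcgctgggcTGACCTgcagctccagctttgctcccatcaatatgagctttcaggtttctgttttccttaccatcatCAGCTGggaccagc
Pou3f3 window, chr1:42605300-42605500: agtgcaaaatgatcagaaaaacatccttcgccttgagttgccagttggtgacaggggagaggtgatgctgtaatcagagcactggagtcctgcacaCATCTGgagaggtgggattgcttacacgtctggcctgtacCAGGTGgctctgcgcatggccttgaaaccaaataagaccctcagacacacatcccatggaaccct
Jag1 window, chr2:137188630-137188830: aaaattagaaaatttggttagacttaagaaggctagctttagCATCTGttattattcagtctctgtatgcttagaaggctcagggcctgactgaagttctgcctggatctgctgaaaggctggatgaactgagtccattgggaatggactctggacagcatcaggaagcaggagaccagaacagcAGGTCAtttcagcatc
Wars2 intron window near Tbx15, chr3:99212131-99212331: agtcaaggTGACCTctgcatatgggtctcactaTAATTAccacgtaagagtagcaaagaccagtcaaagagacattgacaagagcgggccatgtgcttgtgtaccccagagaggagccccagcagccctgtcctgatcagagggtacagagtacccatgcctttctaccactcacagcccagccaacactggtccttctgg
Ebf2 window, chr14:67310193-67310393: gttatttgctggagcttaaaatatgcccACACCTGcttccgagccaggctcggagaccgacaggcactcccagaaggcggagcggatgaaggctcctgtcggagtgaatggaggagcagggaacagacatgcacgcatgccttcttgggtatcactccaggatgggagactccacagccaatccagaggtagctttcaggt

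The first window holds CAGCTG and CACCTG, and the second holds CAGCTG and CAGATG. The Foxd1 window holds AGGTCA, read on the other strand as TGACCT, together with CAGCTG. In the Ebf2 window the T-box letters and the E-box CACCTG share bases in the run ACACCTG.

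The members were of middling strength in each list that called them. Strength was read as the −log10 q that the authors' peak caller gave to a region's best summit, and as its percentile among all distal regions of the same library. The median percentile of the members was 47.5 in maxillary process replicate 1 and 54.4 in replicate 2, and 49.9 in nose replicate 1 and 53.9 in nose replicate 2. The 52223 distal regions called in all 6 libraries had medians of 74.3, 79.5, 79.4 and 80.9 in the same 4 libraries. Members thus sat near the middle of every list, below the regions that all libraries shared. Distal regions of both jaws without nose had medians of 47.5 and 51.4 in the maxillary libraries, and those of mandibular process and nose 49.9 and 50.4 in the nose libraries, so this place in the list was common to regions shared by 2 labels. Few members reached the top 10% of a list, 34 and 88 in the maxillary libraries and 93 and 101 in the nose libraries.

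**Figure D1:**
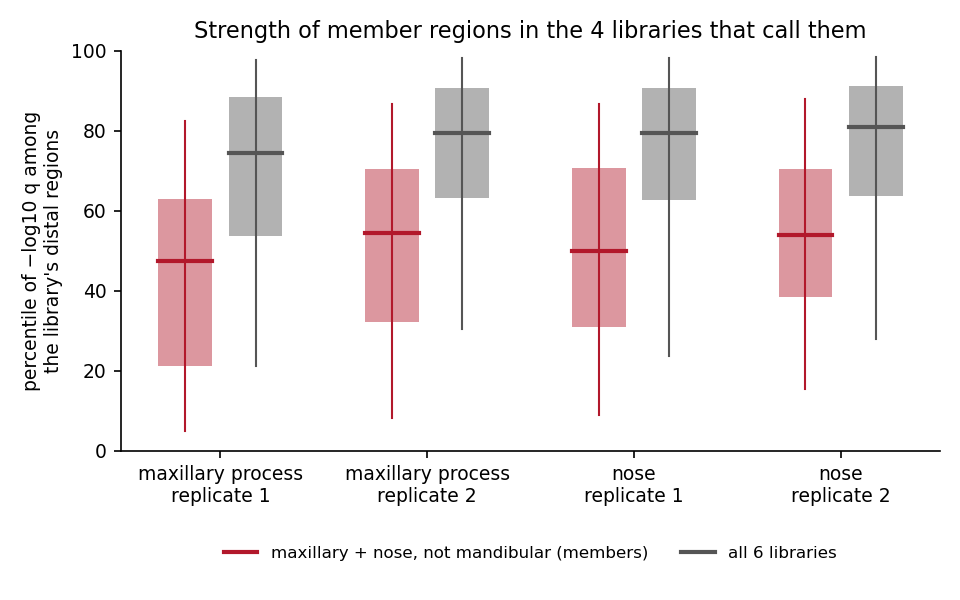
Percentile of −log10 q among the distal regions of each library (y axis) for the 3014 member regions and the 52223 regions called in all 6 libraries, in the 4 libraries that the rule asks for (x axis). Thick lines are medians, boxes the 25th to 75th percentile and thin lines the 5th to 95th percentile, and the member medians lie between 47.5 and 54.4 against 74.3 to 80.9.

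The −log10 q values at the lower end of the lists were shared by many regions. In maxillary process replicate 1, 693 members had the same value of 2.01, and the 5 commonest values held 53.9% of the members there, 32.4% in maxillary process replicate 2, and 49.4% and 46.9% in the nose libraries. Small differences of percentile between members are therefore differences between few steps. The lists also ended at different values, at 2.55 in maxillary process replicate 2, at 1.62 in mandibular process replicate 1 and at 1.3 in the other 4 libraries. The members' median −log10 q was 2.92 and 5.79 in maxillary process replicates 1 and 2 and 3.09 and 3.47 in nose replicates 1 and 2. Raw values of different libraries therefore do not share a scale, and a lean to a label is read from percentiles.

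Between the labels that share them, no difference in strength beyond the spread of the libraries was seen for the members as a group. The median percentile averaged 50.9 ± 4.86 (SD, n = 2) for the label maxillary process and 51.9 ± 2.83 (SD, n = 2) for nose, a difference of -1.01 that was smaller than the spread within labels (exact permutation test over the 4 libraries, two-sided, p = 1, where 2 against 2 cannot go below 0.33). With the replicate number as a block the exact test gave p = 1, and the smallest it allows is 0.5. A shift of a few percentile points could not be seen with 2 libraries a label.

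Single members did lean to one label. A member leaned when its percentile was higher in both libraries of one label than in both of the other. By this measure 576 members (19.1%, 95% exact binomial interval 17.7 to 20.6) were stronger under the maxillary label, against 18.5% of the 60717 distal regions called in these 4 libraries, and 839 members (27.8%, 26.2 to 29.5) were stronger in nose, against 28.5%. Both shares were near their backgrounds, so the members leaned to either label about as often as any distal region that both labels call. At −log10 q of at least 3 the order of the counts turned. Of the 1783 members there, 391 (21.9%) were stronger under the maxillary label and 329 (18.5%) in nose. The backgrounds turned in the same way, to 19.5% and 16.2%, so the turn was not particular to the members. Intervals of this kind cover counting error only.

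**Figure D2:**
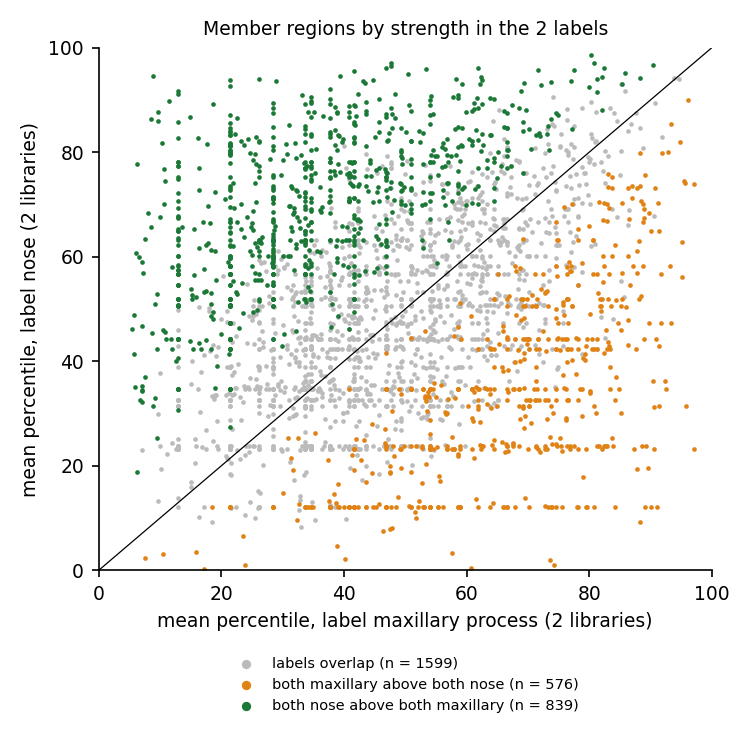
Each point is 1 of the 3014 member regions, with its mean percentile over the 2 libraries labelled maxillary process (x axis) and over the 2 labelled nose (y axis). Of these, 576 lie higher in both maxillary libraries, 839 higher in both nose libraries, and 1599 overlap, and the lines of points come from values of −log10 q that many regions share.

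How strong a member was under one label said little about its strength under the other. Across the 3014 members, Spearman's rho of the percentiles was 0.395 between the maxillary libraries and 0.434 between the nose libraries, but 0.0803 to 0.129 between a library of one label and a library of the other. The regions of all libraries gave 0.748 and 0.771 within these labels and 0.570 to 0.629 between them. Regions of both jaws (0.0890 to 0.157 between labels) and of mandibular process and nose (0.0703 to 0.164) had similarly low values. These are descriptions across regions of the same few libraries.

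The 10 highest members were taken by their lowest percentile over the 4 libraries. The highest, chr6:41691807-41692589, lay in an intron of Kel, the gene of a blood group protein, 7.75 kb from the start site of Llcfc1. Its −log10 q was 11.9 and 25.6 in the maxillary libraries and 16.9 and 13.4 in the nose libraries, so it was within the top 10% of all 4 lists. The second, chr9:4459270-4459836 in an intron of the glutamate receptor gene Gria4, had 9.68 and 29.1 under the maxillary label and 18.8 and 12.9 in nose. The third, chr2:47095715-47096676, was intergenic and 1718 kb from the nearest coding start site, that of the activin receptor gene Acvr2a, with values of 10.6, 17, 16.4 and 22.8. The first 2 overlapped between the labels, and the third was higher in both nose libraries by percentile (95.6 and 97.6 against 91.4 and 89.4).

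The next 7 were a region in an intron of Ank2, which encodes a membrane scaffold protein (12.7, 31.3, 8.82 and 15.5 in the same order of libraries), intergenic regions 219 kb from Pom121l12 and 131 kb from Gm11232, intronic regions of Olfml2b and of the glycosyltransferase gene Mgat5, a region in an intron of Macrod2, 444 kb from Flrt3, and an intergenic region 34.7 kb from Hrasls. Of the 10, 6 were intronic and 4 intergenic, and none had a start site of a listed face gene nearest to it. The nearest peak of a library labelled mandibular process was 3396 to 30811 bp from them. Letters of CAGCTG lay in the windows of 6 of the 10, a number too small to read as a share. They lay in 22.9% of all member windows and 16.1% of all distal windows. The 793 members highest by the same measure had them in 24.3% of windows, and the 563 lowest in 21.8%.

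The widest lean to the maxillary label was at chr14:58467841-58468973, 394 kb from the start site of Fgf9, a growth factor gene of the face. Its −log10 q was 9.63 and 17.3 in the maxillary libraries and 1.46 and 1.85 in the nose libraries, so the 2 labels did not overlap. The others with the widest maxillary lean were near Unc13c (8.88 and 21.7 against 1.46 and 1.85), Calml3, Fggy and Ppargc1a. The widest lean to nose was in an intron of Fam110b, chr4:5768577-5769375, with 1.75 and 2.89 in the maxillary libraries and 16.4 and 15.2 in the nose libraries. Next came intergenic regions nearest to Hdgfl1, Ndst3 and Mpdz, and a region with its summit in a coding exon of Sox5, a transcription factor gene of cartilage, with 2.01 and 3.29 against 15.1 and 14.2. These members were picked for their gaps, and their values are a description.

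Absence from the mandibular lists was not always far from a mandibular peak. The nearest peak of a library labelled mandibular process lay at a median of 2350.5 bp from a member, within 100 bp for 214 members (7.10%), within 500 bp for 688 (22.8%) and beyond 10 kb for 404 (13.4%). For regions of both jaws the median distance to a nose peak was 2778 bp, and for regions of mandibular process and nose the median distance to a peak of the maxillary label was 2524 bp. A member near Wnt5b lay 4 bp from a mandibular peak. A peak close by that just failed to overlap is counted as absent by the rule, and 2326 members remained when peaks within 500 bp also counted.

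**Figure D3:**
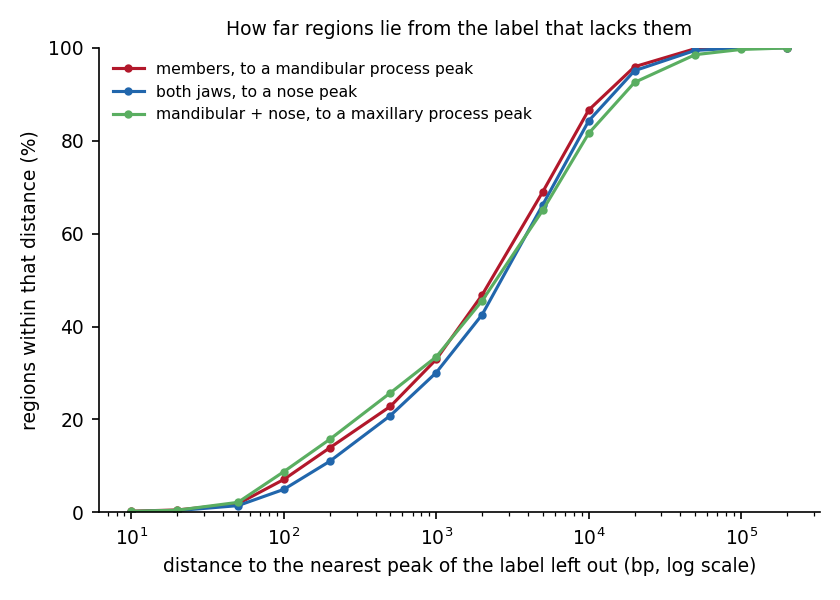
Share of regions (y axis, %) that lie within a given distance (x axis, bp, log scale) of the nearest peak of the label that lacks them, for the 3014 members and for the regions of the other 2 pairs of labels. The curve of the members passes 22.8% at 500 bp and 32.9% at 1 kb, close to the curves of the other pairs.

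Members were one outcome among regions that the 4 libraries called. Of the 60717 such distal regions, 52223 (86.0%) were also called in both mandibular libraries, 2842 in mandibular process replicate 1 alone, 2638 in replicate 2 alone and 3014 (4.96%) in neither. Where 1 mandibular library called them, they stood low in it, at a median percentile of 34.3 in replicate 1 and 37.7 in replicate 2, against 80.4 and 80.0 for regions called in both. Whether a member had signal below the threshold of the mandibular lists cannot be read from lists of peaks. On the distance rule, the member closest to its limit was chr2:118902362-118902609, 1004 bp from Bahd1 (−log10 q of 2.24, 2.78, 1.68 and 1.89), and the region just outside it was chr11:23894191-23894376, 983 bp from Papolg (2.24, 4.92, 1.81 and 4.60).

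Many members lay far from the nearest protein-coding start site, although 50.5% of the summits fell in introns. Their strongest summits were a median of 80.4 kb from the nearest protein-coding start site, against 73.2 kb for both jaws, 72.0 kb for mandibular process and nose, 85.4 kb for nose alone, 77.0 kb for the mandibular and 73.2 kb for the maxillary label alone, 50.4 kb for the regions of all libraries and 64.7 kb for all distal regions. Of the 3014 summits, 1523 (50.5%) fell in introns, 1406 (46.6%) between genes, 37 in noncoding exons, 30 in coding exons and 18 in untranslated regions. Intergenic shares of the other pairs were 48.8% and 47.0%. Members had a median width of 370.5 bp, from 87 to 1240 bp, and a median GC content of 46.3% in the 201 bp window, against 44.8% for both jaws, 45.3% for mandibular process and nose and 48.8% for the regions of all libraries. Repeat-masked bases took 9.52% of the members' windows on average, 12.2% and 13.2% for the other pairs and 14.2% for all distal regions. Each chromosome held members, from 0.739% of the distal regions of chromosome 9 to 1.01% on chromosome 15, except Y with 0 of 89.

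The windows differed from those of the other pairs in the letters of transcription factor motifs, which the rule did not use. For 20 motifs, the share of windows with the letters on either strand was counted. In 4 of them the interval of the members lay above the intervals of both jaws, of mandibular process and nose and of the regions of all libraries, in 3 it lay below all 3, and in 13 it did neither. The letters of 4 further motifs were searched after the first values were seen. No enrichment test was made, and regions are not replicates of a tissue.

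The letters CAGCTG, an E-box form that basic helix-loop-helix factors bind, were the commonest of the motifs above the other sets. They lay in 690 of 3014 member windows (22.9%, 95% exact binomial interval 21.4 to 24.4), in 18.7% (17.4 to 20) for both jaws, 14.5% (13.5 to 15.6) for mandibular process and nose, 19.8% for all libraries and 16.1% of all distal windows. Regions called under the maxillary label alone had 21.4%, and those of nose alone 14.1%. The share was thus near that of the maxillary label and above that of nose. Members that leaned to the maxillary label had 26.2% (22.7 to 30) and those that leaned to nose 19.9% (17.3 to 22.8), intervals that overlap narrowly.

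AGGTCA, the half-site of nuclear receptors such as the retinoic acid receptors and Nr2f1 and Nr2f2, lay in 412 member windows (13.7%, 12.5 to 14.9). The share was 8.10% for both jaws, 9.85% for mandibular process and nose, 8.99% for all libraries and 10.6% for all distal windows. The longer form AAGGTCA, chosen after values were seen, gave 4.51% against 2.26%, 2.49%, 2.25% and 3.08%. Both forms were above these sets, but less so above regions of a single label. AGGTCA lay in 12.2% of the regions of nose alone (11.6 to 12.8) and 11.54% of those of the maxillary label alone (10.8 to 12.3), and AAGGTCA in 3.44% and 4.02%.

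The homeodomain letters were more frequent than in the other pairs too. TAATTA, which Dlx, Msx, Alx and Lhx proteins bind, lay in 257 windows (8.53%, 7.55 to 9.58), against 6.32%, 5.03%, 4.87% and 5.41% in the same order of sets. TAATCC, the site of Pitx, Otx and Gsc proteins, lay in 304 (10.1%, 9.03 to 11.2), against 7.22%, 7.36%, 6.28% and 7.02%. Members that leaned to the maxillary label and members that leaned to nose had 9.20% and 7.03% for TAATTA and 9.90% and 9.89% for TAATCC, with intervals that overlapped for both motifs. Regions of nose alone had 7.41% (6.95 to 7.90) for TAATTA and 9.30% (8.78 to 9.83) for TAATCC, which overlap the members' intervals, and those of the maxillary label alone 6.62% and 8.38%. Against both jaws, the intervals for TAATTA were apart in 3 of 6 settings.

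The T-box half-site AGGTGT and the E-box CACCTG, which Zeb and Snai repressors and E proteins bind, were both chosen after values were seen. AGGTGT lay in 351 member windows (11.6%, 10.5 to 12.8), against 6.46% for both jaws, 5.99% for mandibular process and nose, 6.88% for all libraries and 8.36% for all distal windows. CACCTG lay in 495 (16.4%, 15.1 to 17.8), against 10.2%, 8.46%, 11.7% and 11.8%. These 2 motifs overlap in the run ACACCTG, which 168 member windows held (5.57%, 4.78 to 6.45), against 3.22%, 2.26%, 2.61% and 3.08%. Windows with AGGTGT but without that run made up 6.07% of the members and 3.24% and 3.73% of the other pairs. For CACCTG without it the shares were 10.8% against 7.0% and 6.19%, so each was more frequent by itself than in those pairs. Regions of nose alone had 6.08% for AGGTGT and 10.4% for CACCTG, close to the members. Those of the maxillary label alone had 5.78% and 9.54%, and regions of all libraries 4.27% and 9.08%. Both motifs were also frequent in regions of nose alone (10.5% and 14.8%) and of the maxillary label alone (9.64% and 13.4%) and least frequent in those of the mandibular label alone (4.85% and 6.78%).

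Other letters were scarcer in the members than in the other pairs. CAGATG, an E-box form of Twist and neurogenic factors, lay in 607 windows (20.1%, 18.7 to 21.6), against 36.6% for both jaws, 23.5% for mandibular process and nose and 24.5% for all libraries. That was near the 21.6% of all distal windows. TGTGGT, the letters of Runx proteins, lay in 384 (12.7%, 11.6 to 14), against 19%, 17.6%, 15.8% and 15.9%. CTTTGAT, the site of TCF/LEF factors at the end of Wnt signalling, lay in 92 (3.05%, 2.47 to 3.73), against 6.21%, 4.80%, 3.94% and 4.04%. The E-box CATATG, chosen after values were seen, lay in 136 (4.51%, 3.80 to 5.32), against 10.4%, 7.25%, 5.75% and 6.05%. Regions of the mandibular label alone had 21.2%, 6.56% and 10.3% for the Runx letters, the TCF/LEF site and this E-box. The scarcity was shared with regions of nose alone, which had 16.3% for CAGATG, below the members, and 13.6%, 3.0% and 4.78% for the other 3. CAGATG lay in 26.5% of the regions of the maxillary label alone. Against mandibular process and nose, the intervals for CAGATG were apart in 3 of 6 settings.

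**Figure D4:**
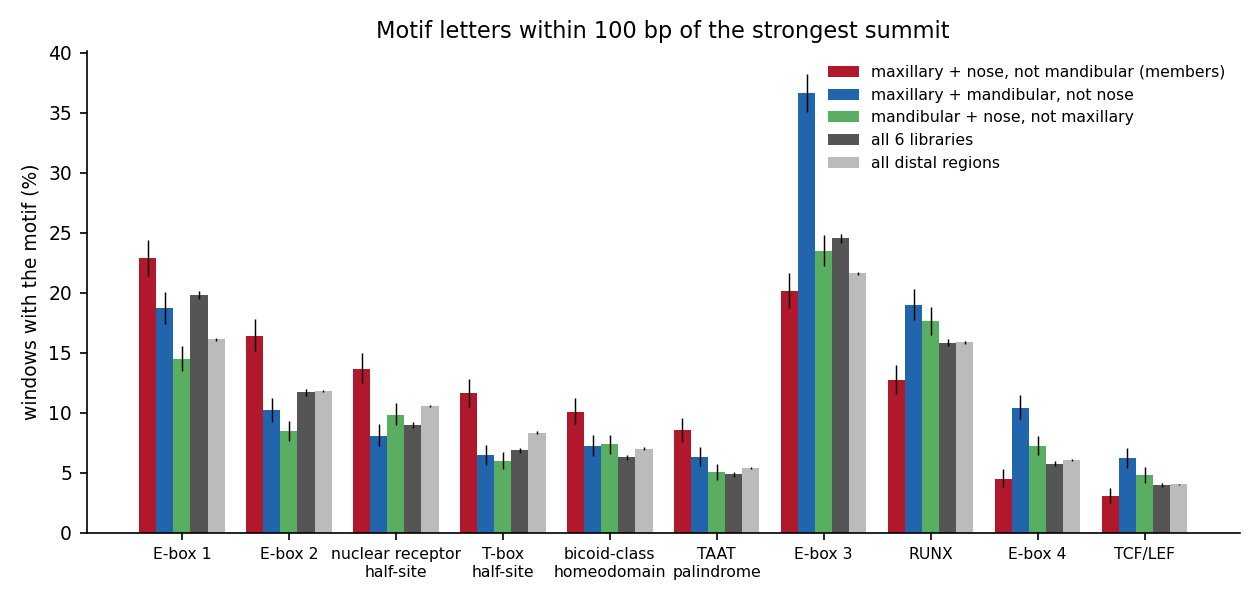
Share of 201 bp windows (y axis, %) that hold the letters of each motif (x axis) in the members, the other 2 pairs of labels, the regions of all 6 libraries and all distal regions, with 95% exact binomial intervals. E-box 1 is CAGCTG, E-box 2 CACCTG, E-box 3 CAGATG and E-box 4 CATATG, and the members stand highest in the first 6 motifs and lowest in the last 4.

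The differences in these letters were larger at the summits than in the sequence around them. Density was counted within 50 bp of the summit and from 400 to 500 bp away. CAGCTG had 1.63 sites per kb at the centre of members (95% exact Poisson interval 1.49 to 1.78) and 0.473 in the flanks, a ratio of 3.45, against ratios of 2.76 for both jaws, 2.12 for mandibular process and nose and 2.61 for all libraries. AGGTCA had 0.743 at the centre (0.649 to 0.847), against 0.319, 0.480 and 0.425 in the other sets, while its flanks had 0.594, 0.630, 0.544 and 0.605. In the members AGGTCA was thus denser at the summit than in the flanks, and in the other 3 sets it was less dense there.

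AGGTGT showed the same order. Its central density was 0.654 (0.566 to 0.752) in the members and 0.341, 0.304 and 0.359 in the other sets, and flank densities ran from 0.484 to 0.559. For CACCTG the centre held 0.972 (0.864 to 1.09) in the members against 0.536, 0.450 and 0.648. TAATTA had more sites in the flanks of members as well (0.464 against 0.392, 0.426 and 0.371) and was less dense at the summit than in the flanks in all 4 sets, with ratios of 0.736 in the members and 0.576, 0.413 and 0.436 in the others, and TAATCC had ratios of 1.35, 1.02, 0.888 and 0.783. CAGATG rose 1.49 times from flank to summit in the members and 2.90 times in the regions of both jaws. Runx letters were not concentrated at member summits, with a ratio of 1.02, against 1.66 for both jaws, 1.43 for mandibular process and nose and 1.29 for all libraries.

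**Figure D5:**
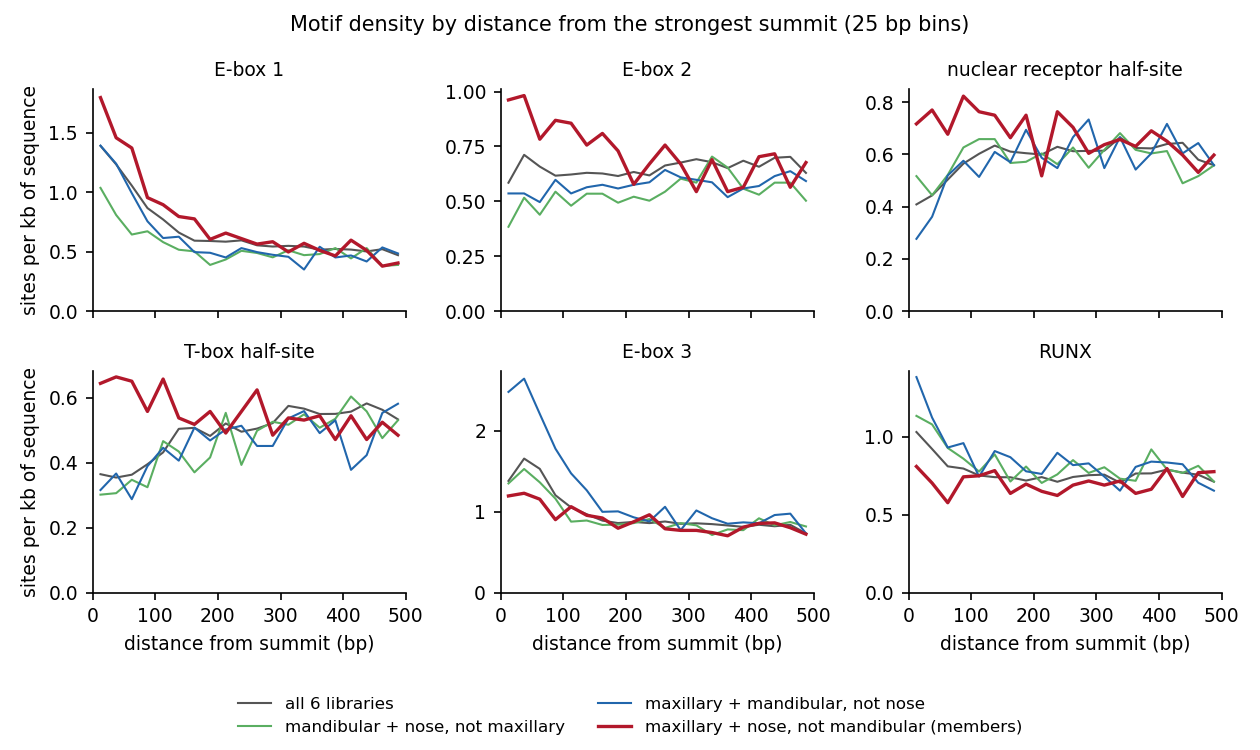
Sites per kb of sequence (y axis) in bins of 25 bp by distance from the strongest summit (x axis, bp) for 6 motifs, in the members and in 3 other sets of distal regions. E-box 1 is CAGCTG, E-box 2 CACCTG and E-box 3 CAGATG; the 4 curves come together in the flanks, and members lie highest near the summit for E-boxes 1 and 2 and both half-sites and lowest for E-box 3 and Runx.

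Windows that joined these motifs were a small part of the members. At least 1 of 5 motifs (the homeodomain letters TAATTA, the E-box CAGCTG, the nuclear receptor half-site AGGTCA, the T-box half-site AGGTGT and the E-box CACCTG) lay in 1594 member windows (52.9%), against 39.9% for both jaws, 35.6% for mandibular process and nose and 41.7% for all libraries, and at least 3 lay in 96 (3.19%), against 1.18%, 0.800% and 1.22%. TAATTA together with CAGATG lay in 58 members (1.92%), 2.82% of both jaws and 1.05% of mandibular process and nose. The 793 members with the highest and the 563 with the lowest values of their lowest percentile held CAGCTG in 24.3% and 21.8%, AGGTCA in 13.5% and 13.5% and CACCTG in 16.5% and 17.4%. The shares of these 3 motifs differed little between strong and weak members.

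Of the members, 1701 lay within 100 kb of a start site, 0.797% of the distal regions at that reach, and 1313 lay farther away. They were spread over 1453 genes, of which 1248 had 1 member, 171 had 2 and 34 had 3 or more. Tnr, which encodes the matrix protein tenascin-R, had the most, with 6 of its 94 distal regions, all in introns and up to 86.7 kb from a start site. The −log10 q of these 6 ran from 1.90 to 3.06 in maxillary process replicate 1, 4.09 to 8.24 in replicate 2, 1.46 to 4.98 in nose replicate 1 and 2.42 to 9.42 in nose replicate 2, so all 6 had modest values in maxillary process replicate 1. Dock4, which encodes an activator of Rac signalling, had 4 of 46, and all 4 lay within 19.1 kb at chr12:40459418-40478491, among 14 distal regions.

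Vgll2, a cofactor of TEAD factors that is known in the pharyngeal arches, had 4 of 51, from 6.13 to 86.8 kb from its start site. The closest, 6.13 kb away, had 2.01 and 11.4 in the maxillary libraries and 3.03 and 3.34 in nose. Phactr2, Iqsec1, Psd3 and Etl4 had 4 each, and Sned1, Slc12a7 and Slit1, an axon guidance ligand gene, had 3 of 18, 21 and 23. The Sned1 member with the highest values under the maxillary label, chr1:93267240-93267797, had 8.39 and 18.1 under the maxillary label and 4.01 and 6.27 in nose, higher in both maxillary libraries. These genes were chosen for their member counts.

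Runs of members along the genome were short, which is a description with no share of other sets beside it. With gaps of up to 50 kb, 526 members (17.5%) stood in 253 runs of 2 or more, and 3 runs had 4, the longest. Besides Dock4 these were chr13:29364550-29417355, with 20 distal regions in all, and chr12:57437325-57525641 near Foxa1, a forkhead gene of endoderm, with 28. The nearest start sites of the members in the chr13 run were those of Cdkal1 and Sox4.

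Near genes of known place in the face, members were few. Of 242 genes in 17 lists, 45 had a member, 59 members in all. The lower-jaw list of 20 genes had 6 members among 603 distal regions (0.995%), the upper-jaw list 5 of 806 (0.620%), the frontonasal list 5 of 641 (0.780%) and the nasal epithelium list 1 of 630 (0.159%), beside 0.797% over all genes. Counts this small cannot set the lists apart. Regions of both jaws numbered 10, 10, 0 and 5 near the same lists and regions of mandibular process and nose 6, 10, 15 and 9.

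Of the upper-jaw genes, Foxd1, a forkhead gene of facial mesenchyme, had the member with the highest ranks, chr13:98393145-98393687, 39.4 kb from its start site. Its −log10 q was 6.93 and 8.16 in the maxillary libraries and 5.99 and 9.03 in nose. The member of Pou3f3, a POU factor gene of the upper jaw, lay at 90.4 kb with 2.92 and 9.60 against 4.01 and 5.29, and that of Jag1, the Notch ligand gene, at 72.1 kb with 4.96 and 10.6 against 2.24 and 4.36. Nr2f2, an orphan nuclear receptor gene, had 6.37 and 5.22 against 3.84 and 2.87 for a member 96 bp from a mandibular peak, and Zfhx4 had a weak one (1.93 and 3.59 against 1.72 and 5.08). By percentile the labels overlapped at Foxd1, Pou3f3, Zfhx4 and Nr2f2 (80.7 and 50.0 against 58.9 and 46.6 for Nr2f2). The Jag1 member was higher in both maxillary libraries (72.3 and 77.5 against 30.9 and 63.6).

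Of the frontonasal genes, Meis1, a homeobox cofactor gene, had 2 members, one in an intron (2.56 and 4.31 against 3.09 and 5.09) and one 88.3 kb away. By percentile the intronic member was higher in both nose libraries (37.3 and 40.5 against 49.9 and 68.2). Pax3 and Pax7, paired box genes of neural crest and midface, had 1 intronic member each, with 3.91 and 5.79 against 3.04 and 3.24 and with 3.91 and 7.64 against 2.24 and 5.29. The Pax3 member was higher in both maxillary libraries by percentile (62.9 and 54.4 against 44.3 and 48.8), and at Pax7 the labels overlapped. The single member of the nasal epithelium list, 75.6 kb from Ebf2, an olfactory neuron factor gene, had 3.91 and 10.6 in the maxillary libraries and 1.46 and 3.47 in nose, and stood higher in both maxillary libraries by percentile (62.9 and 77.5 against 9.0 and 53.9).

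Of the lower-jaw genes, Barx1 had a member with 3.74 and 15.2 in the maxillary libraries against 3.09 and 1.85 in nose, Gsc 1.63 and 6.42 against 2.93 and 6.04, and Mef2c, a target of endothelin signalling in the arch, 2.92 and 7.64 against 4.98 and 4.36. Barx1, a homeobox gene of tooth-forming mesenchyme, was higher in both maxillary libraries by percentile (58.4 and 87.2 against 49.9 and 15.3). Hand1, Hand2, Dlx5 and Dlx6 had no member.

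Among signal genes, 12 of 779 distal regions were members (1.54%), beside 0.797% over all genes. The counts of this list and of the clefting, mesenchyme and cartilage lists were small, and their shares were not tested against that value. Bmp2, a bone morphogenetic protein gene, had 3, of which the one 14.4 kb away had 6.01 and 12.7 in the maxillary libraries and 7.85 and 4.14 in nose, and the one 85.8 kb away was far stronger in nose (2.01 and 2.55 against 4.98 and 9.42). Pdgfc, a growth factor gene of the palate, Wnt5b and the hedgehog receptor gene Ptch1 had 2 each, and Bmp7, Shh and Gli3 had 1 each. The Shh member, 7.60 kb from its start site, had 2.29 and 4.38 against 3.41 and 3.41. By percentile it was higher in both nose libraries (34.6 and 40.8 against 56.6 and 50.0). The clefting list had 6 of 544 (1.10%), of which 2 were near Osr1. The stronger member near Osr1, a gene of palate mesenchyme, had 6.06 and 6.27 against 4.01 and 4.35. By percentile its labels overlapped (78.8 and 57.8 against 62.6 and 61.3). It lay 33372 bp from the nearest mandibular peak.

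General mesenchyme genes had 8 of 685 (1.17%), beside 0.797% over all genes. Of these 8, 3 were near Runx1, 2 near Col3a1 and 1 each near Zeb2, Tbx15 and Col1a2. Cartilage and bone genes had 4 of 388 (1.03%), 2 near Spp1 and 1 each near Sox5 and Col2a1. The Spp1 member 18.9 kb away had 7.81 and 15.8 in the maxillary libraries against 4.98 and 2.63 in nose, higher in both maxillary libraries.

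Lists of other cell types that face tissue may hold had 0 to 4 members each, counts too small to set against the 0.797% over all genes. Surface and oral epithelium had 4 of 381 (1.05%, 1 each near Trp63, Grhl2, Klf5 and Shh), muscle 3 of 290 (1.03%, 2 near Msc and 1 near Myf5), and neurons 2 of 311 (0.643%, Pou4f1 and Snap25). The eye list had 3 of 247 (1.21%), the glia and melanoblast list 4 of 241 (1.66%) with 2 near Mitf that both lists hold, endothelium 3 of 330 (0.909%), and blood 3 of 148 (2.03%), all 3 near Runx1. Forebrain genes had 0 of 308 and second-arch Hox genes 0 of 42. The Myf5 member was higher in nose (2.01 and 3.29 against 6.53 and 8.88), and the Dct member, near a pigment cell gene, was higher under the maxillary label (5.98 and 9.60 against 3.62 and 1.42). How much any of these cell types adds to the members was not tested.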

How the data were processed

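Bulk ATAC-seq of dissected mouse face at E11.5 was sequenced as single-end reads of 50 bp, in 6 libraries with 2 per label. Bowtie2, SAMtools and the build mm10 stand in the submitters' processing notes, and the peak caller is not given in the sources used here. The authors deposited 1 narrowPeak list per library, with 219779 to 299731 lines (a line is a summit), no pooling, and per line a score, a fold over background (a ratio), a −log10 p and a −log10 q. The deposited score and −log10 p were not used, the −log10 q ranked and filtered regions within a list, and the fold over background, as the authors' caller gave it, was an alternative. Depth is unknown, since no reads were used, and presence of a peak was the measure compared across libraries.

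Peaks overlapping by at least 1 bp were merged. Start sites and gene structure came from the GENCODE M21 basic annotation (21827 protein-coding genes), and sequence from the RefSeq GRCm38.p6 genome. Coordinates are 1-based on GRCm38. A member was assigned to the nearest start site up to 100 kb away. The nearest gene need not be the one a member acts on, which was not tested. Motif letters were searched on both strands within 100 bp of the strongest summit, with exact binomial or Poisson intervals of 95%. The only test was an exact permutation over 4 libraries.

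The members, gene lists and motifs were chosen with earlier results of these data known. Genes and regions were named by rule: the 10 members highest by their lowest percentile, the 10 genes with most members, each gene of the 4 position lists with a member and up to 4 of every other list, and the 5 widest gaps in each direction. Some genes that the rule names are not reported here. Other genes of the lists, such as Bmp7, Shh and Gli3, and the checks near Hand1, Hand2, Dlx5, Dlx6, Alx1 and Alx4 were added after values were seen. Scripts were tested on simulated lists. The versions were matplotlib 3.10.9, scipy 1.17.1, pandas 2.3.3 and numpy 2.4.6 under Python 3.11.15. Groups followed the sample labels, and replicate numbers were not taken as pairs.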

Additional observations from a re-analysis of the deposited data

How the results depend on the processing

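The 3014 member regions became 1783 when only peaks with a −log10 q from 3 upwards counted and 828 from 5 upwards. Leaving out each library gave 4242 to 6346 members, the most without maxillary process replicate 1, and counts stayed within 1.5 times the reported one without maxillary process replicate 2 (4242) and nose replicate 2 (4266) but not without nose replicate 1 (4792) or mandibular process replicate 1 (5885) or 2 (5681). Members stronger in nose fell to 329 at −log10 q of at least 3 (18.5% of members, background 16.2%), below the 391 stronger in maxillary process there (21.9%, background 19.5%), so the order of the 2 counts turned, and members stronger in maxillary process to 334 when peaks had to cover 50% of a region (14.5%, background 15.6%). The difference of median percentile, maxillary process minus nose, was 4.11 at −log10 q of at least 3 and ran from -12.8 to 3.12 over the fits that left out 1 library, positive without nose replicate 1, and was -1.01 with the replicate block. The labels do not pair libraries across tissues. TAATTA moved to 7.28% at equal list length. At −log10 q of at least 3, CAGCTG moved to 24.7%, AGGTCA to 11.4%, AGGTGT to 9.20% and TGTGGT to 14.4%. With 50% cover, AGGTCA was 11.2%, AGGTGT 10.3% and TGTGGT 14.4%. Within 50 bp, TAATTA was 3.05%, CAGATG 11.1%, CAGCTG 14.1%, AGGTCA 6.93%, AGGTGT 6.14%, CACCTG 9.16% and TGTGGT 7.07%. The cause of these shifts was not tested, apart from the smaller windows and shorter lists themselves. Under the 5 alternatives tried for motifs, of which those for 6 motifs and the one without maxillary process replicate 2 were chosen after seeing the data, and in the reported setting, the members stayed above both other pairs and the regions of all libraries for the homeodomain letters TAATTA, the E-boxes CAGCTG and, in its Snai form, CACCTG, the nuclear receptor half-site AGGTCA and the T-box half-site AGGTGT, and below them for the E-box CAGATG and the Runx letters TGTGGT. The intervals were apart in 3 of 6 settings for TAATTA against both jaws and CAGATG against mandibular process and nose, in 4 for AGGTCA against mandibular process and nose and TGTGGT against all libraries, in 5 for CAGCTG against both jaws and CAGATG against all libraries, and in all 6 for the other comparisons. With a reach of 500 kb, the lower-jaw list had 12 members (1.24%) and the upper-jaw and frontonasal lists together 24 (0.791%), beside 0.860% of all distal regions.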

Other observations

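The same pattern of calls was found within 1 kb of a start site in 103 regions, which the report leaves out. Among those high in all 4 libraries were regions at Hnmt, with −log10 q of 4.72 and 10.4 under the maxillary label and 5.74 and 4.55 in nose, and at Nectin3, which encodes a cell adhesion protein (5.09 and 7.74 against 5.56 and 4.42). A region 636 bp from a start site of Igf2, an imprinted growth factor gene, had 3.35 and 5.75 against 3.35 and 4.36. These genes were chosen after their values were seen.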
